A study of Mus musculus with 12 samples.

Results

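Integrins and cadherins are the receptors by which cells hold to the matrix and to each other, and this section gives their transcripts in mouse liver beside tumours and after toxic injury. Members were taken by symbol from the table of scaled values: every gene named Itga, Itgb or Cdh with its subunit letter or number, which gave 41 of 17311 genes. They were 18 alpha integrin, 8 beta integrin and 15 cadherin genes. Another 8 genes of the same naming (Cdh7, Cdh8, Cdh9, Cdh10, Cdh19, Cdh20, Cdh22 and Cdh26) had between 0 and 5 counts over all 12 libraries and are not in that table. The study's title places it in work on YAP and TAZ, the effectors of the Hippo pathway, around liver tumours. Polyadenylated RNA was sequenced from 5 groups. All 6 hepatocyte libraries, titled WT, came from mice labelled Lats1tm1.1Jfm/RjoJ; Lats2tm1.1Jfm/RjoJ, which carry conditional alleles of the Hippo kinase genes Lats1 and Lats2, and no source used here says whether Cre was present. Of these, 3 were untreated and 3 were peritumoral: tumours had been started by hydrodynamic injection of 1 µg of SB11 (a Sleeping Beauty transposase), 20 µg of myc-NICD (the intracellular part of Notch) and 4 µg of myr-ha-Akt, and had grown for 8 weeks. The other 6 libraries came from CD-1 IGS mice, 2 of them controls and 2 each at 24 h and 48 h after 1 intraperitoneal injection of thioacetamide (TAA), a hepatotoxin. Sample labels call these libraries Percoll-selected hepatocytes too, whereas the series design calls them livers, and they are called livers below. Every label gives an age of 8 weeks, the age at which tumours were started. No label ties a library to 1 animal or says that animals were pooled, so p-values measure the spread between libraries, which may be technical.

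Integrins are pairs of an alpha and a beta chain that bind matrix proteins or counter-receptors outside the cell and the actin skeleton, through talin and kindlin, inside it. The alpha chain largely sets the ligand: some alpha chains bind the RGD motif of fibronectin and vitronectin, others laminins, others collagens, and a last set, paired with beta 2 or beta 7, is made by leukocytes. Classical cadherins bind their own kind on the next cell and hold on to actin through catenins. Hepatocytes are known to carry both E-cadherin (Cdh1) and N-cadherin (Cdh2), endothelium VE-cadherin (Cdh5), and bile duct cells a richer set of integrins than hepatocytes.

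Libraries held 16228747 to 18522324 counts in hepatocytes and 9640845 to 13692235 in livers. Levels are CPM, counts scaled to library size, with TMM factors set within hepatocytes and within livers, so a level in one arm is not on the scale of the other. Differences are log2 fold changes ± SE from edgeR's quasi-likelihood test. A gene rose or fell where its Benjamini-Hochberg adjusted p was under 0.05 and otherwise did not pass. Groups are given as mean ± SD (n = 3 for hepatocytes, n = 2 for livers). With library totals in place of TMM factors, the median of all genes moved up by 0.24 in peritumoral hepatocytes, 0.51 at 24 h, 0.71 at 48 h and 0.20 between the times. Hepatocyte markers (9 genes) summed to 89930 to 119300 CPM in untreated, 61320 to 144600 in peritumoral, 232500 to 240900 in control, 114400 to 131200 in 24 h and 92100 to 99230 in 48 h libraries, with none of the 9 at 0 in any group. Peritumoral replicate 2 stood apart: 9 biliary markers summed to 7935 CPM there, against 1113 and 805.5 CPM in replicates 1 and 3 and 52.0 to 94.0 CPM in untreated hepatocytes. It also had the lowest sum of hepatocyte markers of its group, 61320 CPM. In bulk RNA, more cells of a type and more RNA per cell cannot be told apart, which bears on every result below.

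RefSeq start sites on GRCm38.p6 were at hand for 24 of the 41 members. The 250 bases upstream are printed for Itgb1, the most abundant integrin transcript per kilobase, and for the leukocyte genes Itgam and Itgax, which lie close together and both rose after TAA. The 3 motifs were searched on both strands: GGAATG, the core bound by TEAD factors that carry YAP and TAZ, TGAGTCA, the AP-1 site, and AGGAAG, an ETS core. Their letters may overlap one another. Capitals mark each match.
Itgb1 (chr8:128685404-128685653, plus strand): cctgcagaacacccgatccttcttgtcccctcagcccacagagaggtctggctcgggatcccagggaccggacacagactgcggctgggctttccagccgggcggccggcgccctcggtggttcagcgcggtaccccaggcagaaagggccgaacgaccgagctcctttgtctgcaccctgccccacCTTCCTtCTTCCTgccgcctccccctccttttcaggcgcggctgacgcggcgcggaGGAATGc
Itgam (chr7:128062390-128062639, plus strand): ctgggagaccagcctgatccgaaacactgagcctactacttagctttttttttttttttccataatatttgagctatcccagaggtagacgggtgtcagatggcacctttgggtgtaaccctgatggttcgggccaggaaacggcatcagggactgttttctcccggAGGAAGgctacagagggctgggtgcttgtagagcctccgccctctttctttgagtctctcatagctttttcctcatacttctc
Itgax (chr7:128129300-128129549, plus strand): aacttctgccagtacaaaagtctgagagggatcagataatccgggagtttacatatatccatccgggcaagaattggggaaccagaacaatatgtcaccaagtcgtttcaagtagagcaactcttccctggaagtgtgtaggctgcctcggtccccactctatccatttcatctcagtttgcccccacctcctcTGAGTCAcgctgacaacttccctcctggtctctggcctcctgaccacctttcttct
In Itgb1, GGAATG begins at position -7, counted from -1 as the last base before the start, and the reverse complement of AGGAAG begins at -63 and again at -56. Itgam holds AGGAAG at -83, and Itgax holds TGAGTCA at -56. The 24 members had 26 promoters. Of these, 2 held GGAATG (Itga10 and Itgb1), against 12.64% of all 32851 promoters of this length. TGAGTCA was found in 1 of the 26 against 4.463%, and AGGAAG in 12 against 29.48%. A match is a run of letters and not a measured site.

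More members rose than fell in each comparison with an untreated group. In peritumoral hepatocytes 19 of 35 tested members rose and none fell (54.3% higher, against 19.0% of all 13442 genes tested, with 10.2% of all genes lower), and 23 had an unadjusted p under 0.05. By DESeq2 20 rose and none fell. At 24 h after TAA 15 of 31 rose and 1 fell (21.3% and 20.5% of all 13497 genes), and at 48 h 21 rose and 1 fell (25.0% and 23.9%). Between 24 h and 48 h 6 of 31 rose and none fell (4.96% and 2.36% of all genes), while 15 of the 31 had an unadjusted p under 0.05. That count of 6 rests on the settings, being 12 with library totals, 13 and 10 with limma at pseudocounts of 0.5 and 0.1, 3 with no filter and 0 of 38 with all 12 libraries in 1 edgeR fit, where 7 had an unadjusted p under 0.05. The median log2 fold change of tested members was 1.73 in peritumoral hepatocytes, 1.0 at 24 h, 1.79 at 48 h and 0.63 between the times, where all tested genes had -0.02, 0.02, -0.03 and 0.01. Some members reached 10 counts in a library of 1 group only, so that their test is conditioned on the high group and their calls are given as description. They were 6 in peritumoral hepatocytes (Cdh6, Cdh11, Cdh15, Cdh16, Itgb6 and Itgb8, all called), 7 at 24 h (Cdh3, Cdh17, Cdh24, Itga2, Itgam, Itgax and Itgb7, 4 of them called) and 8 at 48 h (the same and Cdh11, 6 of them called). Among members with at least 10 counts in a library of both groups, 13 of 29 rose beside tumours, 11 of 24 rose and 1 fell at 24 h, and 15 of 23 rose and 1 fell at 48 h. The share of all genes under this same limit was not worked out, so these counts are given as description. Without untreated replicate 1, 2 or 3 in turn the rising members beside tumours numbered 8, 9 and 11, and without peritumoral replicate 2 they numbered 19, with Cdh1 then lower. Without 24 h replicate 1, 9 members rose at 24 h, and between the times none passed without any 1 of the 24 h or 48 h libraries.

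Of the 19 members that rose in peritumoral hepatocytes, 11 also rose at 48 h after TAA (Itgam, Itgal, Itgb2, Itgb3, Itgb4, Itga8, Itga9, Itga2b, Cdh3, Cdh5 and Cdh13), 4 did not pass there (Itgb7, Itgb8, Cdh4 and Cdh11) and 4 were too low to be tested in livers (Itgb6, Cdh6, Cdh15 and Cdh16). The 11 are 73.3% of the 15 members that rose beside tumours and were tested in both arms, and 57.9% of the 19 that rose at 48 h and were tested in both. Over all 12847 genes tested in both arms these shares were 72.4% of 2240 and 51.0% of 3180, near those of the members. Another 8 rose at 48 h without passing in hepatocytes (Itga1, Itga3, Itga4, Itgav, Itgax, Itgb1, Cdh1 and Cdh24), and Itga2 and Cdh17, untested in hepatocytes, rose there as well.

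**Figure D1:**
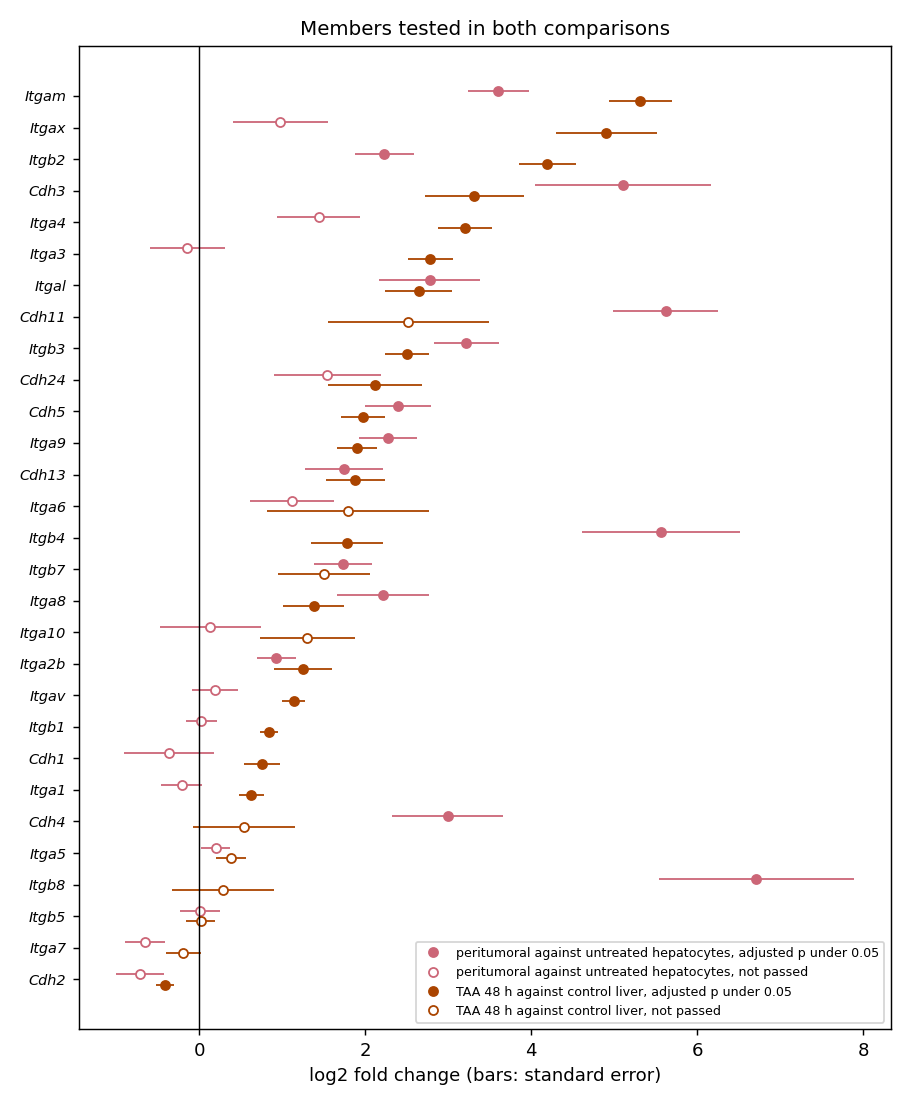
Log2 fold change (x axis, bars are standard errors) of the 29 members tested both in peritumoral against untreated hepatocytes (pink) and in TAA 48 h against control liver (orange), one row per gene, filled where the adjusted p was under 0.05. Itgam and Itgb2 lie far to the right in both, Itgb8 mainly in pink, and Itga3 and Itgax mainly in orange. Cdh11 lies to the right in both, further in pink than in orange, where it did not pass.

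Itgb1, the beta chain shared by most matrix receptors, was the most abundant integrin transcript per kilobase of exon in every group, from 46.6 ± 1.31 CPM per kb in control to 83.6 ± 3.36 in 48 h livers. In hepatocytes it stood at 295, 273 and 217 CPM in untreated and 249, 251 and 299 CPM in peritumoral libraries. The ranges overlapped, and the difference of 0.03 ± 0.19 did not pass (adjusted p = 0.928). In livers Itgb1 stood at 194 and 186 CPM in controls, 278 and 273 at 24 h and 332 and 351 at 48 h. All 4 TAA libraries lay above both controls, and Itgb1 rose by 0.54 ± 0.11 (adjusted p = 0.0101) at 24 h and by 0.84 ± 0.11 (adjusted p = 0.00137) at 48 h. The first of these calls was lost on leaving out 24 h library 1 (adjusted p = 0.0503). Itgb5, a partner of alpha v for vitronectin, was second of the beta chains per kilobase in every group. It stood at 116, 116 and 97.0 CPM in untreated and 102, 80.9 and 148 CPM in peritumoral hepatocytes. In livers its values were 131 and 99.3 CPM in controls, 87.8 and 113 at 24 h and 117 and 116 at 48 h. Its ranges overlapped in each of these, and none of its differences passed, at 0.01 ± 0.24 beside tumours, -0.20 ± 0.18 at 24 h and 0.02 ± 0.18 at 48 h. With library totals only, the 24 h value of Itgb5 turned to 0.31 and its 48 h value passed (adjusted p = 0.0104).

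The make-up of the beta chains differed between groups, given here as a description with no test. Per kilobase, Itgb1 held 64.2 ± 1.27% of the 8 beta transcripts in untreated and 53.0 ± 4.14% in peritumoral hepatocytes, and Itgb5 31.1 ± 1.34% and 24.9 ± 4.85%. The leukocyte chain Itgb2 went from 3.88 ± 0.375% to 14.1 ± 4.25% there. In livers Itgb2 held 1.02 ± 0.387% in controls, 6.34 ± 1.29% at 24 h and 11.4 ± 2.09% at 48 h, and Itgb5 39.9 ± 3.73%, 27.0 ± 4.08% and 24.2 ± 0.153%.

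**Figure D2:**
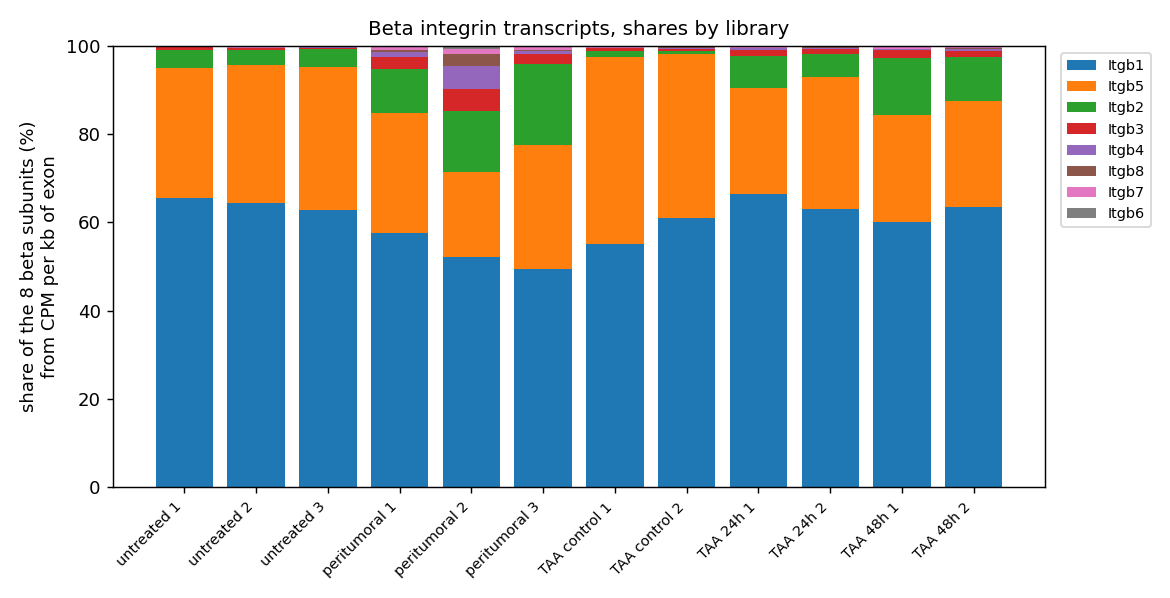
Share of each of the 8 beta integrin genes in their summed CPM per kb of exon (y axis, percent) in each of the 12 libraries (x axis, 1 stacked bar per library). Itgb1 and Itgb5 fill most of every bar, and the Itgb2 segment is wider in all peritumoral and TAA libraries than in the untreated and control ones.

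Among receptors of the RGD motif, the fibronectin and vitronectin chains alpha 5 and alpha v did not pass beside tumours, whereas the beta 3, beta 6 and beta 8 partners of alpha v rose there. In livers alpha v and beta 3 rose. Itga5, the fibronectin receptor chain, had the highest mean level per kilobase of the 18 alpha genes in every group. It held 11.2 ± 0.663 CPM per kb in untreated hepatocytes and 15.7 ± 0.122 in control livers. Itga5 led in each library but peritumoral replicate 3 and 48 h replicate 2. It stood below Itgal and Itga9 in the former (13.66 against 21.05 and 14.58 CPM per kb). In the latter it stood below Itga3 (16.62 against 21.64 CPM per kb). It did not pass beside tumours (0.20 ± 0.17), at 24 h (0.13 ± 0.18) or at 48 h (0.38 ± 0.18), but with library totals only it passed at 24 h and 48 h (adjusted p = 0.0293 and 0.00302), and at 48 h also on leaving out 48 h library 2 (adjusted p = 0.0252). Its values were 53.0, 53.8 and 59.0 CPM in untreated, 50.6, 72.5 and 67.4 in peritumoral, 76.9 and 77.8 in control, 82.1 and 87.3 in 24 h and 120.0 and 82.0 in 48 h libraries, so that the liver groups did not overlap their controls. Itgav, the alpha v chain that activates latent TGF-beta with its partners, stood at 50.6, 40.0 and 28.9 CPM in untreated and 37.4, 59.8 and 39.3 CPM in peritumoral hepatocytes, which overlap (0.19 ± 0.27, not passed). In livers it went from 34.6 and 41.7 CPM in controls to 52.4 and 61.2 at 24 h and 82.6 and 85.4 at 48 h, with no overlap. Itgav rose by 0.57 ± 0.14 (adjusted p = 0.0193) at 24 h, a call lost on leaving out control library 1, or 24 h library 2 (adjusted p = 0.0746 to 0.102), and by 1.14 ± 0.14 (adjusted p = 0.00117) at 48 h.

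Itgb3, the partner of alpha v and of the platelet chain alpha IIb, rose in both arms. It stood at 3.41, 2.56 and 1.65 CPM in untreated and 17.2, 34.4 and 19.9 CPM in peritumoral hepatocytes. In livers it had 2.79 and 1.91 CPM in controls, 8.08 and 6.54 at 24 h and 14.6 and 12.1 at 48 h. Groups did not overlap in either arm, with rises of 3.22 ± 0.39 (adjusted p = 0.00402), 1.64 ± 0.27 (adjusted p = 0.00417) and 2.51 ± 0.27 (adjusted p = 0.000675). Itgb8, an alpha v partner found on epithelium and in TGF-beta activation, stood at 0.231, 0.174 and 0 CPM in untreated and 5.33, 37.0 and 5.43 CPM in peritumoral hepatocytes, the highest being replicate 2. It rose by 6.71 ± 1.17 (adjusted p = 0.00826), or 5.17 without peritumoral replicate 2. In livers Itgb8 had 0.619 and 2.51 CPM in controls, 1.47 and 1.44 at 24 h and 1.32 and 2.47 at 48 h, with overlap, and did not pass at 24 h (-0.11 ± 0.63, 0.40 with library totals only) or 48 h (0.29 ± 0.62). Itgb6, an epithelial alpha v partner, had no count in any untreated library and 1.70, 5.39 and 0.983 CPM in the peritumoral ones, at least 47.6-fold higher against a floor of 3 counts over the group (adjusted p = 0.0200). Without peritumoral replicate 2 this bound was 21.0 (adjusted p = 0.0152). Its call was lost on leaving out untreated library 1 or 2 (adjusted p = 0.0516 to 0.0548). In livers Itgb6 had 0 counts in controls, 4 at 24 h and 17 at 48 h and was not tested in the main fit. With no filter, edgeR did not pass it at 24 h (adjusted p = 0.145) and had it higher at 48 h (adjusted p = 0.0144), from no count in controls.

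Itga8 and Itga9 are alpha chains of mesenchymal and endothelial cells that bind nephronectin, and tenascin and osteopontin, respectively. Itga8 stood at 2.83, 3.14 and 2.67 CPM in untreated and 14.6, 4.27 and 21.4 CPM in peritumoral hepatocytes, where replicate 2 was lowest. It rose by 2.21 ± 0.55 (adjusted p = 0.0274), a call lost on leaving out untreated library 1, 2 or 3, or peritumoral library 1 or 3 (adjusted p = 0.0573 to 0.102). In livers Itga8 went from 6.29 and 3.61 CPM in controls to 1.84 and 3.10 at 24 h and 10.6 and 15.1 at 48 h, below the controls at the first time and above them at the second. The 24 h difference of -1.0 ± 0.39 did not pass (adjusted p = 0.0793) but did on leaving out control library 2 (adjusted p = 0.0491), the 48 h one was a rise of 1.38 ± 0.37 (adjusted p = 0.0203), lost on leaving out control library 2, or 48 h library 2 (adjusted p = 0.0892 to 0.107), and between the times it rose by 2.38 ± 0.38. Itga9 stood at 17.4, 13.3 and 13.5 CPM in untreated and 50.3, 52.8 and 112 CPM in peritumoral hepatocytes. Its liver values were 15.1 and 9.82 CPM in controls, 39.4 and 30.1 at 24 h and 50.1 and 43.0 at 48 h. Groups did not overlap, and Itga9 rose by 2.28 ± 0.35 (adjusted p = 0.00635), 1.48 ± 0.24 (adjusted p = 0.00421) and 1.90 ± 0.24 (adjusted p = 0.00121). Of 12 markers of stellate cells and fibroblasts, 10 rose beside tumours, 11 at 24 h and 12 at 48 h, with none at 0 in any group. Their sum was 99.3 to 173 CPM in untreated, 1141 to 2599 in peritumoral, 162 to 274 in control, 657 to 688 in 24 h and 1560 to 2161 in 48 h libraries. These markers thus rose at 24 h, where Itga8 lay below its controls. Among peritumoral libraries the marker sum was highest in replicate 2 (2599 CPM), where Itga8 was lowest. It was lowest in replicate 3 (1141 CPM), where Itga8 and Itga9 were highest. The sum of the endothelial markers was 1046, 983.6 and 1703 CPM in peritumoral replicates 1, 2 and 3, thus lowest where Itga8 was lowest and highest where both genes were highest. The part of either cell type in the result was not tested.

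Of the laminin receptor chains, Itgb4 rose in both arms and Itga3 in livers. Itga3, which pairs with beta 1 and binds laminins of basement membranes, stood at 28.2, 23.3 and 8.89 CPM in untreated and 16.2, 26.0 and 12.7 CPM in peritumoral hepatocytes. These overlap, and the difference of -0.14 ± 0.46 did not pass and was 0.10 with library totals only. In livers Itga3 went from 16.2 and 14.4 CPM in controls to 33.9 and 54.3 at 24 h and 87.9 and 124 at 48 h. No group overlapped another, and Itga3 rose by 1.53 ± 0.26 (adjusted p = 0.00525), by 2.79 ± 0.27 (adjusted p = 0.000526) and, between the times, by 1.26 ± 0.26 (adjusted p = 0.0396). Per kilobase it went from 8.46 ± 0.60% to 23.0 ± 6.66% of the alpha integrin transcripts. Itga6, a second laminin chain, had 19.5, 14.3 and 7.16 CPM in untreated and 14.7, 48.1 and 26.1 CPM in peritumoral hepatocytes, which overlap (1.12 ± 0.51, not passed). Its 2 control livers disagreed, at 46.2 and 3.01 CPM, while the treated ones held 37.7 and 60.7 at 24 h and 92.6 and 78.0 at 48 h. The 48 h difference of 1.79 ± 0.97 had a wide error and did not pass (adjusted p = 0.169). Both times passed without control replicate 1 (adjusted p = 0.00293 and 0.00149).

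Itgb4, which pairs only with alpha 6 and anchors epithelium in hemidesmosomes, stood at 0.289, 0.581 and 0.315 CPM in untreated and 7.94, 43.2 and 6.24 CPM in peritumoral hepatocytes, with replicate 2 highest. It rose by 5.56 ± 0.95 (adjusted p = 0.00886), or 4.16 without peritumoral replicate 2. In livers Itgb4 had 0.722 and 1.0 CPM in controls, 2.35 and 2.06 at 24 h and 2.06 and 3.87 at 48 h. No control overlapped a treated library. It rose by 1.34 ± 0.44 (adjusted p = 0.0497) at 24 h and 1.78 ± 0.44 (adjusted p = 0.0150) at 48 h, calls lost on leaving out control library 1 or 2, or 24 h library 1 or 2 (adjusted p = 0.111 to 0.195) and on leaving out control library 1, or 48 h library 2 (adjusted p = 0.0814 to 0.0916). DESeq2 did not call the 24 h value (adjusted p = 0.0874). Itga7, a laminin chain best known from muscle, did not pass anywhere, with means between 9.62 and 17.8 CPM and -0.66 ± 0.24 beside tumours.

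Collagen receptor chains changed in livers, where Itga2 and Itga1 rose at 48 h. Itga1 was the main one, at 31.0 ± 2.04 CPM in untreated and 26.8 ± 8.29 CPM in peritumoral hepatocytes (-0.21 ± 0.25, not passed). In livers it went from 35.1 and 29.6 CPM in controls to 40.9 and 36.1 at 24 h and 53.5 and 46.4 at 48 h, without overlap. It did not pass at 24 h (0.25 ± 0.15) and rose by 0.63 ± 0.15 (adjusted p = 0.0132) at 48 h, a call lost on leaving out control library 2, or 48 h library 1 (adjusted p = 0.0717 to 0.0858). Itga2 was a rare transcript, with 0.103 and 0 CPM in controls, 0.294 and 0.688 at 24 h and 2.06 and 3.0 at 48 h. The controls held 1 count in all. The ratio at 24 h was 9.78, with a 95% counting interval from 1.49 to 414, and did not pass, and at 48 h it was 50.8 with an interval from 8.82 to 2034 (adjusted p = 0.00179), and between the times Itga2 rose by 2.34 ± 0.57 (adjusted p = 0.0456), or 3.04 without 24 h replicate 2. In hepatocytes Itga2 summed to 13 counts in untreated and 49 in peritumoral libraries and was not tested. Itga10 did not pass in any comparison (1.30 ± 0.57 at 48 h), and 33.5% of its exon length is shared with another gene on the same strand. Itga11, the fibroblast collagen chain, had 0 counts in untreated and 22 in peritumoral hepatocytes, at least 5.98-fold more, and 3, 9 and 18 counts in control, 24 h and 48 h livers. It was below the filter for testing in both arms.

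Itgb2, Itgam and Itgal, of the leukocyte integrins, rose beside tumours and after TAA. Itgb2, the common beta chain of this class, stood at 13.8, 10.9 and 10.5 CPM in untreated and 32.4, 49.8 and 83.8 CPM in peritumoral hepatocytes. In livers it had 3.40 and 1.70 CPM in controls, 22.7 and 17.6 at 24 h and 52.9 and 40.9 at 48 h. Groups did not overlap, and it rose by 2.23 ± 0.36 (adjusted p = 0.00700), 2.98 ± 0.33 (adjusted p = 0.00116) and 4.20 ± 0.34 (adjusted p = 0.000330). Itgam, the alpha chain of macrophages and neutrophils, stood at 4.56, 2.96 and 2.83 CPM in untreated and 24.6, 52.4 and 49.6 CPM in peritumoral hepatocytes. Its liver values were 0.722 and 0.401 CPM in controls, 11.5 and 7.22 at 24 h and 20.7 and 24.7 at 48 h, again without overlap. Itgam rose by 3.60 ± 0.37 (adjusted p = 0.00327), 4.04 ± 0.37 (adjusted p = 0.000714) and 5.32 ± 0.38 (adjusted p = 0.000270), and between the times by 1.27 ± 0.28 (adjusted p = 0.0459). An unnamed gene model on the same strand covers 68.7% of the exons of Itgam. Itgal, the alpha chain of T cells and other leukocytes, had 12.2, 8.84 and 8.97 CPM in untreated and 31.3, 36.5 and 138 CPM in peritumoral hepatocytes, with replicate 3 far above the other two. It rose by 2.78 ± 0.60 (adjusted p = 0.0178), or 1.75 without peritumoral replicate 3, a call lost on leaving out untreated library 1, 2 or 3 (adjusted p = 0.0597 to 0.0755). In livers Itgal went from 5.98 and 2.91 CPM to 11.6 and 13.2 at 24 h and 35.8 and 19.9 at 48 h, with rises of 1.48 ± 0.40 (adjusted p = 0.0254) and 2.64 ± 0.41 (adjusted p = 0.00247). The 24 h value was 2.08 without control replicate 1, and its call was lost on leaving out control library 2, or 24 h library 1 or 2 (adjusted p = 0.0840 to 0.0998).

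Itgax, the alpha chain of dendritic cells and some macrophages, had 2.43, 0.930 and 1.34 CPM in untreated and 1.27, 3.28 and 4.74 CPM in peritumoral hepatocytes, which overlap (0.98 ± 0.57, not passed). In livers it had 0.206 and 0.301 CPM in controls, 5.80 and 3.99 at 24 h and 11.1 and 4.80 at 48 h. The controls lay far below, and Itgax rose by 4.21 ± 0.62 (adjusted p = 0.00282) and 4.90 ± 0.61 (adjusted p = 0.00108) (4.19 without 48 h replicate 1). Itga4, a chain of lymphocytes and monocytes that binds VCAM-1, stood at 3.87, 3.49 and 3.38 CPM in untreated and 3.51, 10.6 and 15.1 CPM in peritumoral hepatocytes. These overlap at replicate 1, and the difference of 1.44 ± 0.50 did not pass (adjusted p = 0.0708), though it did on leaving out peritumoral library 1 (adjusted p = 0.00903). In livers it went from 0.722 and 1.2 CPM to 3.38 and 2.54 at 24 h and 9.40 and 8.54 at 48 h, without overlap, and rose by 1.61 ± 0.33 (adjusted p = 0.0104), 3.20 ± 0.33 (adjusted p = 0.000582) and, between the times, 1.60 ± 0.28 (adjusted p = 0.0282). The 24 h call was lost on leaving out control library 1, or 24 h library 1 (adjusted p = 0.0521 to 0.0620). Itgb7, a partner of alpha 4 and alpha E, rose beside tumours by 1.73 ± 0.35 (adjusted p = 0.0139), lost on leaving out untreated library 1 (adjusted p = 0.0751), and did not pass at 24 h (0.65 ± 0.59) or 48 h (1.5 ± 0.55), where it passed without control replicate 1 (adjusted p = 0.0394). Itgae, the E-cadherin-binding chain of tissue lymphocytes, did not pass in hepatocytes (0.97 ± 0.60) and was too low to test in livers. Itgad had 2 counts in peritumoral hepatocytes and 12 at 48 h, at least 2.90-fold above the 0 of the controls. Itga2b, the platelet chain, rose by 0.93 ± 0.23 (adjusted p = 0.0275) to 5.16 ± 0.531 CPM beside tumours, by 1.2 ± 0.35 at 24 h and by 1.25 ± 0.35 at 48 h. These calls were lost on leaving out untreated library 1, 2 or 3, or peritumoral library 3 (adjusted p = 0.0594 to 0.127), on leaving out control library 2, 24 h library 1 or 2, or 48 h library 1 or 2 (adjusted p = 0.0526 to 0.129) and on leaving out control library 2, 24 h library 1 or 2, or 48 h library 1 or 2 (adjusted p = 0.0507 to 0.119).

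Sums of blood cell markers were higher beside tumours and after TAA as well, with overlap for lymphocytes at 24 h. Of 12 macrophage markers 10 rose beside tumours, 8 at 24 h and 11 at 48 h, and their sum was 228 to 359 CPM in untreated, 1358 to 3945 in peritumoral, 88.8 to 182 in control, 342 to 417 in 24 h and 618 to 944 in 48 h libraries, with none at 0 in any group. Neutrophil markers summed to 4.96 to 7.15 CPM in untreated and 21.3 to 49.0 CPM in peritumoral hepatocytes, where 7 of the 8 tested (of 10) rose. In livers they summed to 0.201 to 0.722 CPM in controls, with 7 of 10 at 0 counts (S100a8, S100a9, Ly6g, Ngp, Ltf, Camp and Retnlg), 5.85 to 8.89 at 24 h and 8.61 to 9.23 at 48 h. There 3 and 4 of the 4 tested rose. Markers at or near 0 counts in the untreated or control group passed the filter through the high group, such as S100a8 and S100a9 in livers and Ngp, Ltf and Camp in hepatocytes. Their calls are given as description. Of 10 lymphocyte markers, 2 were tested in each comparison with an untreated group and 1 rose: Gzma beside tumours, Cd3e at 24 h and Cd4 at 48 h. The 10 summed to 1.34 to 3.38 CPM in untreated, 5.14 to 14.6 in peritumoral, 0.601 to 1.75 in control, 1.69 to 2.20 in 24 h and 2.87 to 3.46 in 48 h libraries. Control livers held no count of 5 of them (Cd3e, Cd3g, Cd8a, Ms4a1 and Trbc2). The Cd3e call is thus description too, as is that of Gzma, at a mean of 0.0647 CPM in untreated hepatocytes. Platelet markers (6 genes) summed to 0.236 to 0.462, 5.94 to 7.28, 0.10 to 0.825, 1.84 to 2.06 and 8.27 to 8.33 CPM in the same order, with Gp9 at 0 in untreated hepatocytes and control livers and Gp1bb at 0 in the former. Only 1 of the 6 was tested beside tumours, and it rose. In livers 2 were tested, of which 1, the same gene, rose at 24 h and 2 at 48 h. The part of these cells in the result was not tested.

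**Figure D3:**
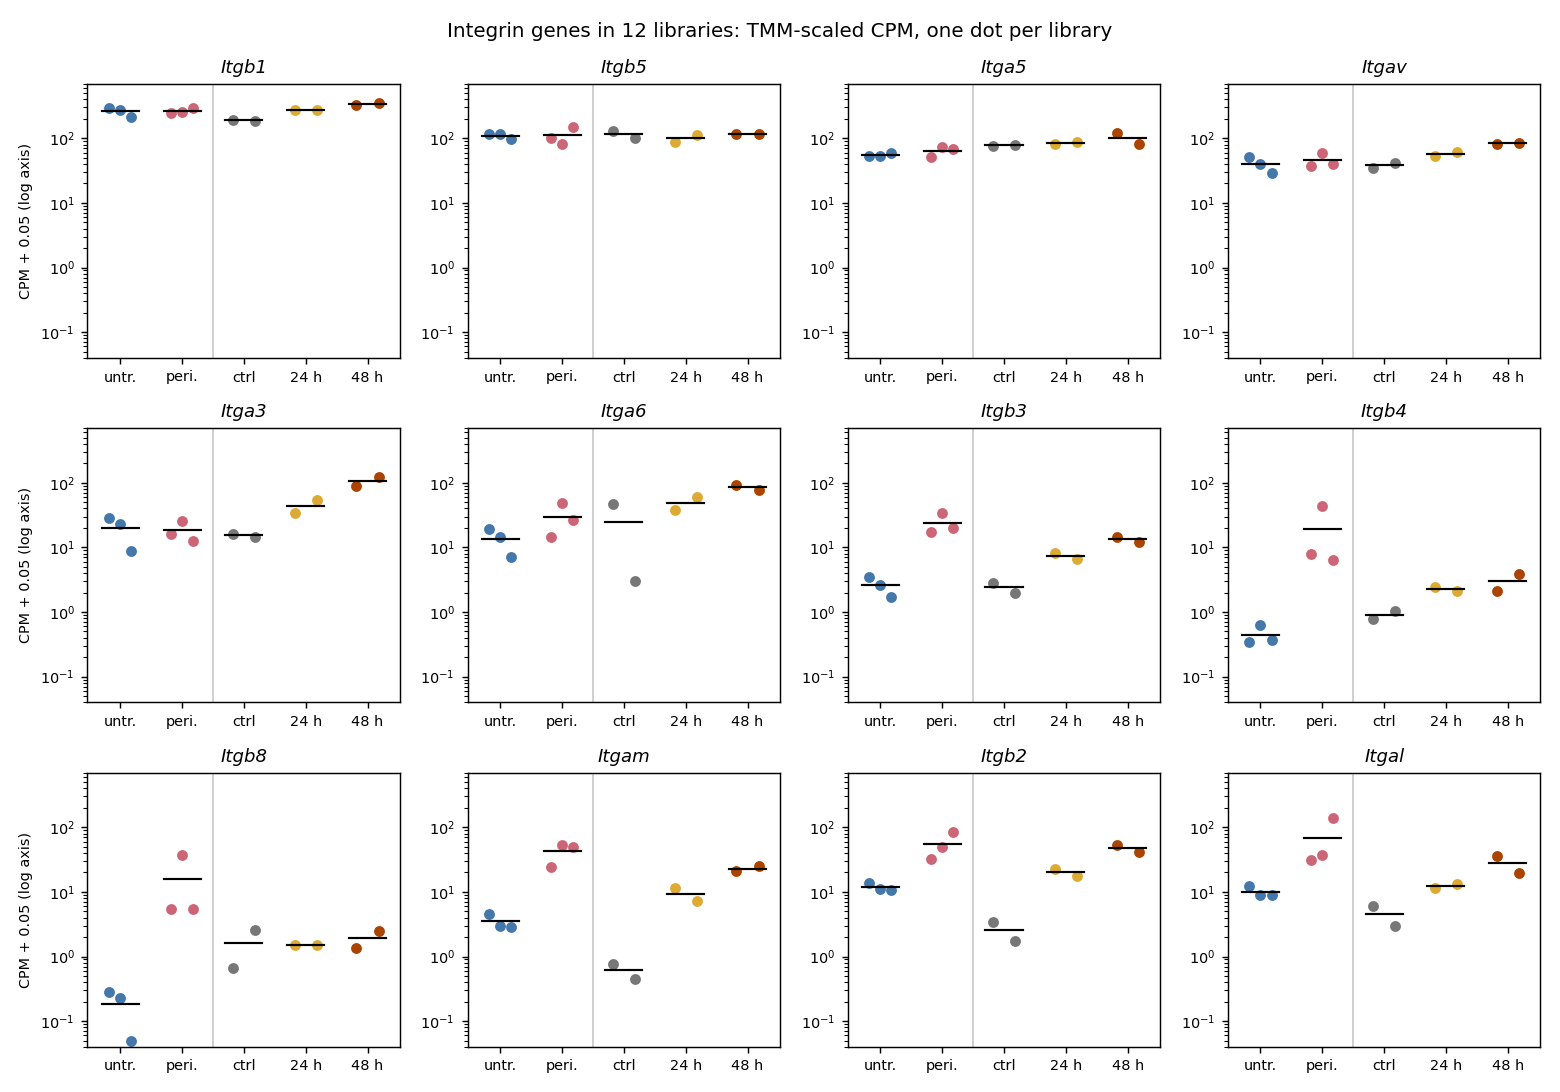
TMM-scaled CPM plus 0.05 (y axis, log scale) of 12 integrin genes in untreated (untr.) and peritumoral (peri.) hepatocytes and in control (ctrl), TAA 24 h and TAA 48 h livers (x axis), 1 dot per library and a bar at the group mean, the grey line dividing arms scaled apart. Itgb5 and Itga5 stay nearly level, Itga3 is higher at each time after TAA, and peritumoral replicate 2 is highest for Itgb4 and Itgb8.

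E-cadherin and N-cadherin, the cadherins of hepatocyte junctions, were abundant in every group. Cdh1 was the leading cadherin per kilobase in every group, at 76.3 ± 3.28% of the 15 cadherin transcripts in untreated hepatocytes and 56.5 ± 3.27% in control livers. By library the exception was peritumoral replicate 3, where Cdh5 led (46.1 against 20.7 CPM per kb), and the peritumoral lead of Cdh1 came from replicate 2 (94.2 CPM per kb). It stood at 279, 333 and 243 CPM in untreated and 139, 431 and 94.5 CPM in peritumoral hepatocytes. Peritumoral replicates 1 and 3 lay below all untreated libraries and replicate 2 above them, so that the difference of -0.36 ± 0.54 did not pass (adjusted p = 0.651). Without replicate 2, Cdh1 was lower by edgeR, at -1.25 ± 0.26 (adjusted p = 0.0185). In livers Cdh1 went from 111 and 85.4 CPM in controls to 166 and 126 at 24 h and 139.9 and 192 at 48 h, both times lying above the controls and overlapping each other. It did not pass at 24 h (0.58 ± 0.22, adjusted p = 0.0760, but 0.0486 by DESeq2) and rose by 0.76 ± 0.22 (adjusted p = 0.0282) at 48 h, lost on leaving out control library 2, or 48 h library 2 (adjusted p = 0.149 to 0.157). Cdh2 stood at 87.8, 83.3 and 119.5 CPM in untreated and 68.7, 36.7 and 71.6 CPM in peritumoral hepatocytes, lowest in replicate 2. The groups did not overlap, but the difference of -0.72 ± 0.29 did not pass (adjusted p = 0.107). In livers Cdh2 went from 98.1 and 102 CPM in controls to 62.5 and 61.2 at 24 h and 73.3 and 77.5 at 48 h, all treated libraries lying below the controls. It fell by 0.69 ± 0.11 at 24 h (adjusted p = 0.00336) and by 0.41 ± 0.11 at 48 h (adjusted p = 0.0182), the 48 h call being lost on leaving out 48 h library 1 or 2 (adjusted p = 0.0761 to 0.114). Both calls rest on the scaling: with library totals only, the 24 h value did not pass and the 48 h value turned to 0.30.

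Cdh5, the cadherin of endothelial junctions, rose in both arms. It had 21.4, 27.6 and 18.8 CPM in untreated and 88.6, 74.3 and 194 CPM in peritumoral hepatocytes, with replicate 3 highest. In livers it had 17.7 and 11.3 CPM in controls, 67.3 and 50.9 at 24 h and 64.2 and 50.2 at 48 h. Groups did not overlap their controls, with rises of 2.40 ± 0.40 (adjusted p = 0.00788), 2.02 ± 0.26 (adjusted p = 0.00189) and 1.98 ± 0.26 (adjusted p = 0.00138). Cdh13, a cadherin held by a lipid anchor and found on endothelium and muscle, rose by 1.75 ± 0.47 (adjusted p = 0.0344) to 5.33 ± 2.18 CPM beside tumours, a call lost on leaving out untreated library 1, 2 or 3, or peritumoral library 1 or 3 (adjusted p = 0.0693 to 0.126), and by 1.88 ± 0.35 (adjusted p = 0.00538) at 48 h, but did not pass at 24 h (0.87 ± 0.37). All 12 endothelial markers rose beside tumours, 8 at 24 h and 10 at 48 h, and their sum was 246 to 323 CPM in untreated, 984 to 1703 in peritumoral, 200.0 to 236 in control, 342 to 445 in 24 h and 399 to 479 in 48 h libraries, with none at 0 in any group. Their part in the result was not tested.

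Cdh17, the liver-intestine cadherin known mainly from gut epithelium, had the largest fold change among the members tested in livers. It had 0.103 and 0 CPM in controls, 1.76 and 6.19 at 24 h and 32.5 and 37.9 at 48 h. Each group lay above the one before it, and the controls held 1 count in all. At 24 h the ratio to controls was 79.7 (95% counting interval 14.0 to 3174, adjusted p = 0.00271), and at 48 h it was 698 (125 to 27590, adjusted p = 0.000313). Between the times Cdh17 rose by 3.14 ± 0.54 (adjusted p = 0.0217), or 2.50 and 4.28 without 24 h replicates 1 and 2, and this call was lost on leaving out 24 h library 1 or 2, or 48 h library 1 or 2 (adjusted p = 0.0593 to 0.103). Its share of cadherin transcripts per kilobase went from 0.0280 ± 0.0396% to 1.72 ± 1.53% and 11.4 ± 0.108%. In hepatocytes Cdh17 had 6.87, 7.97 and 0.0787 CPM in untreated and 0, 0.0830 and 0 CPM in peritumoral libraries. Untreated replicate 3 was as low as the peritumoral libraries, and the gene fell below the filter for testing in hepatocytes. With no filter it was lower beside tumours (adjusted p = 0.00866), and without peritumoral replicate 2, when it was tested, it did not pass (adjusted p = 0.0790). Cdhr2, a protocadherin-like protein of brush borders in the list of cadherin partners, rose at 48 h, at 19.2 ± 0.106 against 0.614 ± 0.444 CPM, and fell beside tumours, at 0.228 ± 0.223 against 1.88 ± 0.470 CPM. Its brush-border partner Cdhr5 went the other way at 48 h, falling to 36.6 ± 0.584 against 97.4 ± 1.78 CPM, and did not pass beside tumours (-0.53 ± 0.22).

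Cdh3, Cdh4, Cdh6, Cdh15 and Cdh16 rose beside tumours and were highest in peritumoral replicate 2, the library with the most biliary transcript. Cdh16, the kidney cadherin, had no count in untreated libraries and 3.39, 29.7 and 3.58 CPM in peritumoral ones, at least 226-fold more (adjusted p = 0.0223), a call lost on leaving out untreated library 1 or 2 (adjusted p = 0.0547 to 0.0589). Without peritumoral replicate 2 the bound was 55.0 (adjusted p = 0.00416). Cdh3, or P-cadherin, had 0.231, 0.581 and 0.236 CPM in untreated and 5.76, 28.9 and 2.66 CPM in peritumoral hepatocytes. It rose by 5.11 ± 1.06 (adjusted p = 0.0156), or 3.56 without replicate 2, and lost its call on leaving out untreated library 1, 2 or 3 (adjusted p = 0.0533 to 0.0665). In livers Cdh3 did not pass at 24 h (1.52 ± 0.68) but did on leaving out 24 h library 2 (adjusted p = 0.0459), and it rose by 3.31 ± 0.60 (adjusted p = 0.00464) at 48 h, from 0.304 ± 0.138 to 3.12 ± 0.212 CPM. Cdh15, or M-cadherin of muscle, had 3 counts in untreated hepatocytes and 0.606, 11.4 and 1.73 CPM in peritumoral ones, a ratio of 85.6 (95% counting interval 29.0 to 417, adjusted p = 0.0124), a call lost on leaving out untreated library 1, 2 or 3 (adjusted p = 0.0557 to 0.0762). Without replicate 2 that ratio was 18.6 (5.93 to 94.1, adjusted p = 0.0117). Cdh6, a kidney cadherin, had 0, 0.116 and 0.236 CPM in untreated and 1.09, 9.71 and 1.04 CPM in peritumoral hepatocytes and rose by 5.12 ± 1.28 (adjusted p = 0.0237), or 3.26 without replicate 2 and 4.50 and 5.93 without untreated replicates 1 and 3. That call was lost on leaving out untreated library 1, 2 or 3 (adjusted p = 0.0515 to 0.0961). Cdh4, or R-cadherin, rose by 3.0 ± 0.67 (adjusted p = 0.0197) to 3.98 ± 2.96 CPM, or by 2.21 without replicate 2, lost on leaving out untreated library 1, 2 or 3 (adjusted p = 0.0533 to 0.0788), and did not pass in livers. Replicate 2 held the highest value of Cdh3, Cdh4, Cdh6, Cdh15 and Cdh16 as it did of Itgb4, Itgb6 and Itgb8, and without it the 3 of these with 10 counts in a library of both groups (Cdh3, Cdh4 and Itgb4) still passed (adjusted p = 0.00201 to 0.0229).

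Biliary markers moved with this group of genes: 6 of 8 tested (of 9) rose beside tumours, 4 of 7 at 24 h and 2 of 7 at 48 h, where 1 fell. Their sum in livers was 78.3 to 86.4 CPM in controls, 136 to 155 at 24 h and 166 to 259 at 48 h. Mesothelial markers (4 genes, all higher beside tumours) summed to 1.28 to 1.97 CPM in untreated and 23.4 to 146 CPM in peritumoral hepatocytes, highest in replicate 2. Some markers of both lists were near 0 counts in untreated hepatocytes and passed the filter through the high group, so their calls are given as description. The part of either cell type in the result was not tested.

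Cdh11, the cadherin of fibroblasts, stood at 0.289, 0.116 and 0.0787 CPM in untreated and 6.18, 14.1 and 5.32 CPM in peritumoral hepatocytes. No library overlapped, and it rose by 5.62 ± 0.63 (adjusted p = 0.00330), or 6.33 without untreated replicate 1. In livers it had 3, 7 and 25 counts in control, 24 h and 48 h libraries and did not pass at 24 h (adjusted p = 0.672) or 48 h (adjusted p = 0.0658, or 0.0348 without control replicate 1). Cdh24, a cadherin of the type II class, did not pass in hepatocytes (1.55 ± 0.65) and rose at 1.77 ± 0.59 (adjusted p = 0.0489) and 2.12 ± 0.57 (adjusted p = 0.0208) in livers from 5 counts in controls. DESeq2 called neither (adjusted p = 0.147 and 0.0659), and the edgeR calls were lost on leaving out control library 1 or 2, 24 h library 1 or 2, or 48 h library 1 or 2 (adjusted p = 0.0685 to 0.215) and on leaving out control library 1 or 2, or 48 h library 2 (adjusted p = 0.0732 to 0.106). Cdh18 did not pass in hepatocytes (1.38 ± 1.42). Cdh12 had 1, 14 and 20 counts in control, 24 h and 48 h livers and none in hepatocytes, and Cdh23, known from the hair cells of the inner ear, had 2 counts in untreated and 16 in peritumoral hepatocytes. Neither was tested in any comparison. Other cadherins below the filter in livers had, in control, 24 h and 48 h libraries, 1, 1 and 0 counts of Cdh15, 2, 2 and 4 of Cdh16, 5, 2 and 24 of Cdh18 and 4, 13 and 10 of Cdh6.

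**Figure D4:**
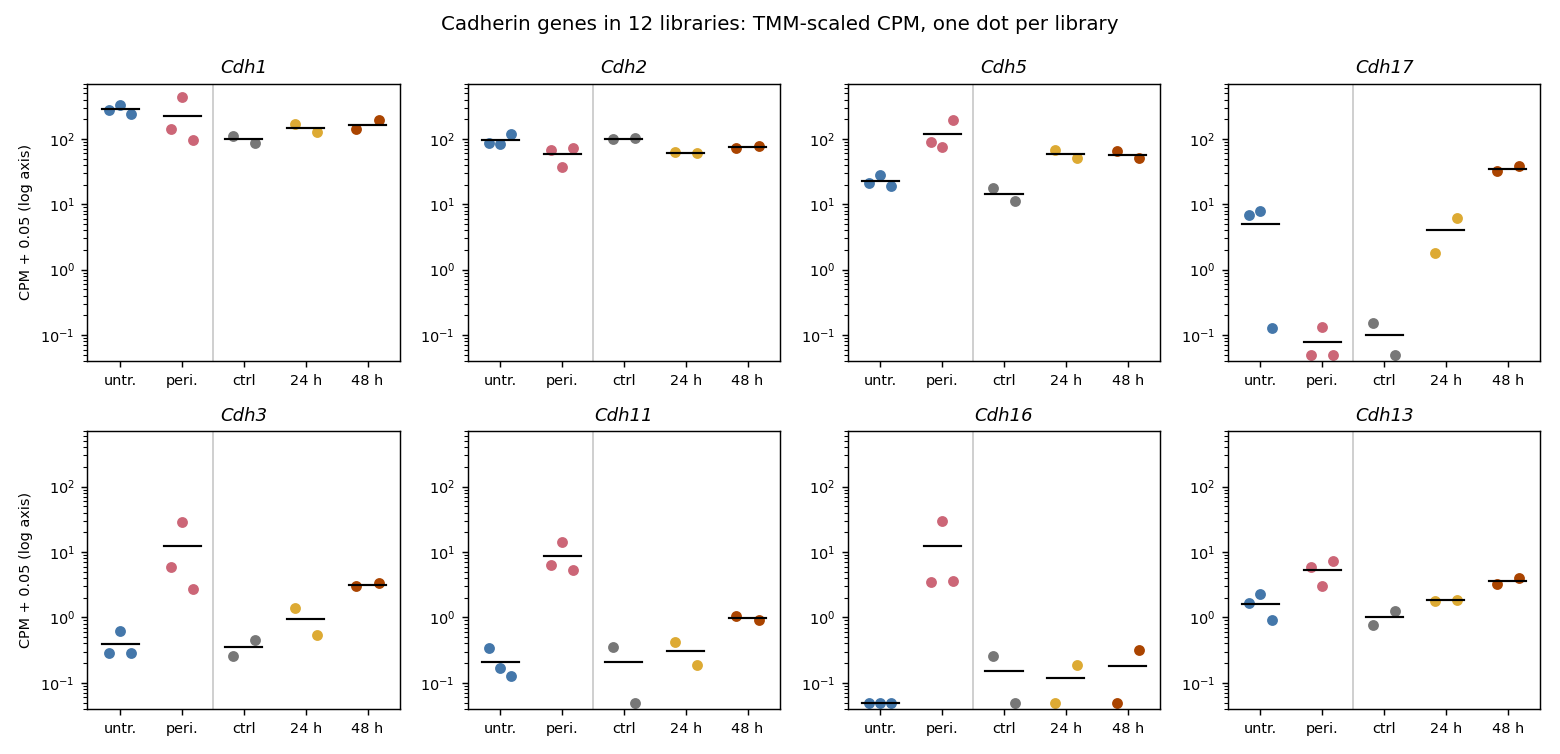
TMM-scaled CPM plus 0.05 (y axis, log scale) of 8 cadherin genes in the 5 groups (x axis, labels as for the integrins), 1 dot per library and a bar at the group mean, the grey line dividing arms scaled apart. Cdh17 climbs at each time after TAA and is at or near 0 in all peritumoral libraries, whereas Cdh16 and Cdh11 are highest in peritumoral libraries and at most 0.989 CPM in livers.

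The 2 responses were then compared directly, as the difference between the peritumoral and the TAA fold change in 1 fit of all 12 libraries. At 24 h 5 of 38 members differed (13.2%, against 21.1% of all 14615 genes) and at 48 h 6 of 38 (15.8%, against 15.3%), so that the share among members was below or near that of all genes. Values below are the peritumoral minus the TAA log2 fold change, and the arms differ in mouse stock and scaling. Cdh17 and Itgax differed at both times. Cdh17 rose after TAA and was at or near 0 in all peritumoral libraries, and Itgax rose after TAA and did not pass beside tumours. The values were -13.11 ± 2.15 and -16.21 ± 2.10 for Cdh17, and -3.36 ± 1.03 and -4.01 ± 1.02 for Itgax. The size for Cdh17 depends on groups with next to no counts, and its test is conditioned on its high groups. Itgb8, which rose beside tumours and did not pass after TAA, differed at both times (6.65 ± 1.53 and 6.30 ± 1.52). At 24 h Itga8 (3.11 ± 0.83) differed, having risen beside tumours and lain below its controls after TAA without passing. Itgb4 (4.07 ± 1.29) rose more beside tumours than at 24 h. At 48 h Itga3 (-3.03 ± 0.66) and Itgb1 (-0.89 ± 0.26) differed, having risen after TAA and not passed beside tumours. Itgb2 (-2.03 ± 0.57) rose more at 48 h than beside tumours. For Cdh5 the difference did not pass (0.27 ± 0.57 and 0.35 ± 0.57), nor did it for Itga9, Itgam or Itgb3 at either time.

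Genes that work with integrins were counted from lists chosen by function. Over all genes tested, 19.0% rose and 10.2% fell beside tumours, 21.3% and 20.5% at 24 h, and 25.0% and 23.9% at 48 h. Of 25 focal adhesion adaptors, 9 rose and 2 fell beside tumours, 11 rose and 3 fell at 24 h and 15 rose and 3 fell at 48 h (medians 0.54, 0.48 and 0.66). Beside tumours Parvb, an actin-linking parvin, rose by 2.18 ± 0.28, Tgfb1i1, a paxillin relative, by 2.03 ± 0.26, and Fermt3, the kindlin of blood cells, by 2.22 ± 0.37. At 48 h Flna, an actin cross-linker, rose by 3.59 ± 0.17, from 13.4 ± 0.593 to 162 ± 8.64 CPM, and Parvg, the parvin of blood cells, by 4.93 ± 0.48. Lims2, an adaptor of the integrin-linked kinase complex, fell in both arms, at -1.01 ± 0.24 and -1.34 ± 0.13. Actn4, an alpha-actinin, and Fermt2, the kindlin of most tissues, did not pass beside tumours (-0.39 ± 0.23 and -0.38 ± 0.24), whereas at 48 h Actn4 rose by 0.63 ± 0.12 and Fermt2 fell (-0.80 ± 0.15). Of 10 integrin regulators 4 rose beside tumours and none fell, 4 rose and 1 fell at 24 h, and 4 rose and 1 fell at 48 h (medians 0.30, 0.14 and 0.17). Apbb1ip, which brings talin to integrins in blood cells, rose by 1.90 ± 0.41 and 3.58 ± 0.45 beside tumours and at 48 h, and Cd151, a tetraspanin that holds laminin receptors, rose by 0.98 ± 0.11 at 48 h.

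Of 18 tested ligands other than collagens and laminins (21 listed), 12 rose and none fell beside tumours, 11 rose and 1 fell at 24 h, and 11 rose and 2 fell at 48 h (medians 2.07, 1.45 and 1.84). Spp1 among them is also a biliary marker. Vcam1, the counter-receptor of alpha 4 integrins, stood at 183 ± 74.1 against 16.3 ± 6.13 CPM beside tumours and 84.6 ± 0.687 against 4.99 ± 0.388 CPM at 48 h. Fbln5, an RGD protein of elastic fibres, rose by 4.71 ± 0.38 beside tumours, and Tgfb1, whose latent form alpha v integrins bind, by 2.74 ± 0.31. At 48 h the matrix proteins Thbs1 and Tnc rose by 5.31 ± 0.28 and 6.15 ± 0.35. Fn1, made by hepatocytes, did not pass in either arm (-0.31 ± 0.41 and 0.18 ± 0.25), and Vtn, likewise a plasma protein, fell at 48 h (-1.18 ± 0.22).

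Of 17 tested catenins and partners (20 listed), 3 rose and 1 fell beside tumours, 2 rose and 3 fell at 24 h and 4 rose and 4 fell at 48 h (medians 0.04, 0.01 and 0.01). These counts are near or below the shares of all genes given above. Ctnnb1, which ties cadherins to the actin link and also carries Wnt signals, stood at 369.6 ± 79.0 against 359.7 ± 20.9 CPM beside tumours and 305 ± 2.22 against 314 ± 2.18 CPM at 48 h and did not pass. Arvcf, a relative of p120 catenin, rose by 1.76 ± 0.25 and 0.82 ± 0.22, and the adhesive phosphatase gene Ptprm by 2.64 ± 0.41 and 2.36 ± 0.25. Pvrl3, a nectin, fell by 1.0 ± 0.11 at 48 h. Of the other cadherin superfamily genes (19 of 21 listed were matched), 6 of 12 rose and 1 fell beside tumours, 5 of 13 rose and 3 fell at 24 h, and 6 of 13 rose and 2 fell at 48 h (medians 1.19, 0.20 and 0.53). Fat4, a giant cadherin whose fly relative feeds into the Hippo pathway, rose by 2.40 ± 0.31 and 1.97 ± 0.40, and its partner gene Dchs1 by 1.73 ± 0.42 and 1.69 ± 0.52. Pcdh1, an epithelial protocadherin, fell in both arms, at -0.87 ± 0.22 and -1.17 ± 0.12.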

How the data were processed

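RNA of 12 mouse libraries in 5 groups was analysed from 2 tables. The authors deposited raw counts per gene for 41128 genes, the input of every main test, and RPM values for 17311 genes, which are counts scaled to the library total: 100% of these RPM values gave back whole counts (relative tolerance 1e-06). The aligner STAR, DESeq2, mm10 and GRCm38 are listed per the submitters' processing notes, with no version and no role. No source used here names the annotation or strand setting of the counting, so genes that overlap may share reads. Positions, exon lengths and overlaps are from GENCODE M21 on GRCm38, which held all 41 members, and promoters from RefSeq.

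Sample titles gave groups and replicate numbers, and no 2 libraries of a group agreed within sampling noise. The main test was that of edgeR 4.0.16 in R 4.3.3: TMM factors, filterByExpr (minimum count 10, total 15), quasi-likelihood F test without the legacy estimate, two-sided, adjusted over all genes, threshold 0.05. Hepatocytes (13442 genes) and livers (13497) were fitted apart, and response differences in 1 fit of all 12 libraries (14615 genes). The fits were tested on simulated counts. A count of 0 allows 3 counts, 0.162 to 0.311 RPM per library, and intervals are exact at 95%, for counting error only. Alternatives were RLE factors, library totals, no filter, a minimum of 50 counts, DESeq2 1.42.0, limma 3.58.1 on log2 RPM with a pseudocount of 0.5 or 0.1, a joint fit of all 12 libraries, a block for the replicate number, and leaving out each library. Values in every library are given for the 3 most abundant alpha, beta and cadherin genes, for 10 chosen genes and for the 8 called members of smallest p in each comparison, and other members more briefly. Actn4, Fermt2, Fn1, Vtn, Ctnnb1 and Dchs1 were named after their values were seen. Members, lists and tests were chosen with earlier results of these data known, and 2 of 186 list genes were not matched to the table. Some marker genes are not reported here by name.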

Additional observations from a re-analysis of the deposited data

Results flagged for a closer look

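The peritumoral response and the TAA response of 8 members differed by a test of the difference itself, the edgeR interaction contrast over all 12 libraries. Values are the peritumoral minus the TAA log2 fold change ± SE, and adjusted p-values are over 14615 genes. No explanation was tested.

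For Cdh17, low in peritumoral hepatocytes and high after TAA, the difference was, for the 24 h response, -13.11 ± 2.15 (adjusted p = 0.00402), a call held with each library left out in turn. The fitted size depends on groups with next to no counts. Against the 48 h response Cdh17 differed by -16.21 ± 2.10 (adjusted p = 0.000979), a call held with each library left out in turn. Itgax, the dendritic cell alpha chain, differed from the 24 h response by -3.36 ± 1.03 (adjusted p = 0.0427), a call lost on leaving out untreated library 1, control library 1 or 2, 24 h library 1 or 2, or 48 h library 1 (adjusted p = 0.0511 to 0.186). Its difference from the 48 h response was -4.01 ± 1.02 (adjusted p = 0.0299), a call lost on leaving out untreated library 1, control library 1 or 2, or 48 h library 1 (adjusted p = 0.0703 to 0.134). Itgb8, higher beside tumours, differed from the 24 h response by 6.65 ± 1.53 (adjusted p = 0.0160), a call lost on leaving out control library 2, or 24 h library 1 or 2 (adjusted p = 0.0541 to 0.136). For the 48 h response the Itgb8 difference was 6.30 ± 1.52 (adjusted p = 0.0248), a call lost on leaving out untreated library 1 or 2, control library 1 or 2, or 48 h library 1 or 2 (adjusted p = 0.0515 to 0.184).

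At 24 h alone, Itga8 differed by 3.11 ± 0.83 (adjusted p = 0.0275), a call lost on leaving out untreated library 1 or 2, control library 1, or 24 h library 1 or 2 (adjusted p = 0.0506 to 0.127). At the same time, Itgb4 differed by 4.07 ± 1.29 (adjusted p = 0.0487), a call lost on leaving out untreated library 1, 2 or 3, control library 1 or 2, 24 h library 1 or 2, or 48 h library 1 or 2 (adjusted p = 0.0703 to 0.193). Against the 48 h response alone, the laminin chain Itga3 differed by -3.03 ± 0.66 (adjusted p = 0.0196), a call lost on leaving out control library 1 or 2, or 48 h library 1 or 2 (adjusted p = 0.0543 to 0.0798). The common beta chain Itgb1 differed by -0.89 ± 0.26 (adjusted p = 0.0465), a call lost on leaving out untreated library 1 or 2, peritumoral library 1, control library 1 or 2, 24 h library 1 or 2, or 48 h library 1 or 2 (adjusted p = 0.0567 to 0.131). The leukocyte beta chain Itgb2 differed by -2.03 ± 0.57 (adjusted p = 0.040), a call lost on leaving out untreated library 1 or 2, control library 1 or 2, 24 h library 1 or 2, or 48 h library 1 or 2 (adjusted p = 0.0607 to 0.155).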

How the results depend on the processing

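Of 82 log2 fold changes of named members, all 82 kept direction and call with RLE factors and 76 with DESeq2 (4 gained and 2 lost the call), 77 without a count filter, 69 of 69 at a minimum count of 50, and 65 each with library totals, limma at either pseudocount and all 12 libraries in 1 fit (14 lost in the last). Rising members beside tumours numbered 19, and 8 to 19 with 1 library left out. Falling ones numbered 0, 1 with no filter, 3 with all 12 libraries and 0 to 1 with 1 left out. At 24 h the 15 rising members became 22 with library totals, 23 with limma at a pseudocount of 0.1 and 9 to 13 with 1 left out, and the 1 falling member became 0 with library totals, both limma fits and all 12 libraries and 1 to 2 with 1 left out. At 48 h the 21 rising members became 27 with library totals and 17 to 23 with 1 left out, and the 1 falling member became 0 with library totals, limma and all 12 libraries and 0 to 1 with 1 left out. Between the times the 6 rising members became 12 with library totals, 3 with no filter, 13 and 10 with limma at 0.5 and 0.1, 0 with all 12 libraries and 0 to 7 with 1 left out. Response differences numbered 5 at 24 h (1 to 8 with 1 left out) and 6 at 48 h (1 to 12). A lone library left in a group is assumed to vary like the others. With library totals all genes moved up too, by medians of 0.24 beside tumours, 0.51 at 24 h, 0.71 at 48 h and 0.20 between the times. Shares of all genes called under the alternatives were not worked out, so a higher count there cannot be read as particular to members.

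Some values changed sign, nearly all small and without a call, and the cause was not tested. With library totals and with limma at 0.5 and 0.1, Cdh2 at 48 h (called lower at -0.41) turned to 0.30 in all 3, Cdh5 between the times (-0.05) to 0.15 in all 3, Itga3 beside tumours (-0.14) to 0.10, 0.18 and 0.19, Itgb5 at 24 h (-0.20) to 0.31, 0.32 and 0.32, and Itgb8 at 24 h (-0.11) to 0.40, 0.44 and 0.65, or 0.013 with all 12 libraries. Itgb5 beside tumours (0.01) was -0.0044 with no filter. With 1 library left out, ranges that crossed 0 were -0.51 to 0.18 (Itga3), -0.022 to 0.42 (Itgav), -0.10 to 0.15 (Itgb1) and -0.27 to 0.23 (Itgb5) beside tumours, -0.31 to 4.77 (Cdh11), -0.40 to 0.0034 (Itgb5) and -0.79 to 1.21 (Itgb8) at 24 h, and -0.21 to 0.18 (Itgb5) and -0.42 to 1.58 (Itgb8) at 48 h. Between the times they were -0.065 to 0.39 (Cdh1), -0.27 to 0.16 (Cdh5), -0.050 to 0.50 (Itga5), -0.030 to 1.17 (Itgax), -0.098 to 0.80 (Itgb4) and -0.14 to 0.75 (Itgb8).

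Replicate numbers showed no sign of pairing in hepatocytes. Deviations of same-numbered libraries correlated at -0.21, 0.12 and 0.079, and those of different numbers at -0.21 to 0.22. Such values cannot show whether the libraries were prepared in pairs. With the number as a replicate block, 16 members rose beside tumours, 14 rose and 1 fell at 24 h, 22 and 1 at 48 h, 5 rose between the times, and 5 and 6 responses differed. Itgb5 beside tumours was -0.032 and Itgb8 at 24 h 0.060 under the block. Depth limits rare members: with 3 counts worth up to 0.311 RPM, 6 members in hepatocytes and 10 in livers missed the count filter, Cdh17 in hepatocytes because 2 libraries alone held it (119 and 137 counts).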
